A study of Drosophila melanogaster with 3 samples.

Results

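The genes described here encode nuclear subunits of the 5 enzyme complexes of oxidative phosphorylation. They are the Ensembl BDGP6 nuclear protein-coding genes of Drosophila melanogaster whose symbol begins with ND- (complex I), Sdh (complex II), UQCR- (complex III), COX (complex IV) or ATPsyn (complex V). The rule gave 88 genes of 13968 nuclear protein-coding genes, with 40, 8, 9, 16 and 15 in complexes I to V. Of these, 24 were counted as paralogues, whose symbol adds L, with or without 1 digit, to that of another member or to COX6A, COX6C or ATPsynepsilon. This wording was chosen after the data were seen, and the Sdh prefix also takes in Sdhaf3, an assembly factor of complex II. The prefixes leave out subunits with other names, such as blw of complex V and levy of complex IV, which are given separately near the end.

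Oxidative phosphorylation couples the transfer of electrons along the inner mitochondrial membrane to the making of ATP. Complexes I and II take electrons from NADH and succinate, complex III passes them on to cytochrome c, complex IV hands them to oxygen, and complex V uses the proton gradient built on the way to make ATP. A few subunits are encoded by mitochondrial DNA and were outside the rule. The rest are transcribed in the nucleus, so that the promoters of many scattered genes supply the parts of a common machine.

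Chromatin immunoprecipitation with sequencing (ChIP-seq) mapped where CG10431, assayed as a transcription factor, sits in whole embryos aged 0 to 12 h, pooled from both sexes. The 3 samples are biological replicates of 1 group, from 1 transgenic line that stably carries CG10431 with GFP at its C terminus. No other genotype, stage or condition was compared, and the labels do not give the promoter that drives the fusion. A free-text label calls the samples an input control, whereas the assay and antibody fields and the record of each file's source speak of a ChIP, as which they were treated here.

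Each replicate has a list of 30000 candidate entries (peaks with background), the pooled replicates have another of 30000, and 3314 pooled entries passed the authors' test of the irreproducible discovery rate (IDR). The signal of an entry is the authors' own value on a scale that is not stated, so it is compared within a list only, and ranks run from 1 for the strongest. The 3314 IDR peaks are the pooled entries of highest signal, from 186.7 to 69279. Read depth is unknown. Genes with an IDR summit no farther than 500 bp from any transcript start were counted as bound, and those with a pooled summit in that window as having a candidate. A replicate value is that of the strongest entry in the window, which can be another summit than the pooled one. Whole embryos mix many cell types, so weak binding in most cells and strong binding in few cannot be told apart.

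CG10431 was called at 10 of the 88 genes (11.4%, exact binomial 95% interval 5.59 to 19.9). The 10 were ND-ASHI, ND-SGDH, ND-MWFE and ND-B22 of complex I, SdhC of complex II, COX5A, COX7AL2 and COX7A of complex IV, and ATPsynC and ATPsynE of complex V. No gene of complex III was bound. Among all nuclear protein-coding genes 14.8% were bound, so the share was no higher than the background. With replicate 1, 2 or 3 left out, and the peak required in both others, 3, 5 or 6 genes remained bound. These were 3.41%, 5.68% and 6.82%, against 10.7%, 10% and 10.7% of all nuclear protein-coding genes under the same filter. A further 39 genes had a candidate but no IDR peak, and 39 had no candidate.

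The DNA under 4 of the bound summits and under the strongest summit that missed the IDR list, at COX5B, is shown here because these summits lie outside annotated exons. Sequences are from the RefSeq copy of the dm6 assembly, on the strand of the named gene, and capitals mark matches to the TATA box (TATAAA) or to the DNA replication-related element (DRE, TATCGATA), searched on both strands. The ND-ASHI stretch is chrX:6679311-6679460 (minus strand), that of ND-SGDH is chr3L:12138585-12138734 (minus), that of SdhC is chr3R:11210097-11210246 (minus), that of COX5A is chr3R:11819421-11819547 (plus) and that of COX5B is chr2L:6557596-6557745 (plus).
ND-ASHI: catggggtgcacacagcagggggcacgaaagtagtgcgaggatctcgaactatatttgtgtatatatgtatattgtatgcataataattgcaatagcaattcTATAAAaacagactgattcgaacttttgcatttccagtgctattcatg
ND-SGDH: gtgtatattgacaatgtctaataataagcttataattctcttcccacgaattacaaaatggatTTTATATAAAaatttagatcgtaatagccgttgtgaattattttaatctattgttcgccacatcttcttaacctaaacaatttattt
SdhC: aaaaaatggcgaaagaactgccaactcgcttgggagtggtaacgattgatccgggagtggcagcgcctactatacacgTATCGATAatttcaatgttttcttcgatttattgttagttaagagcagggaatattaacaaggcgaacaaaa
COX5A: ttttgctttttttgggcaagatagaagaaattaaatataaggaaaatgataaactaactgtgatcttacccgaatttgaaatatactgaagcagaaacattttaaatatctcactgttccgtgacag
COX5B: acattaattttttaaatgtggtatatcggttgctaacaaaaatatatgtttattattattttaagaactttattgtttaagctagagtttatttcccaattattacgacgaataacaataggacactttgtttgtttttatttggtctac

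The stretches differ in base composition. GC content was 38.0% at ND-ASHI and 40.7% at SdhC, and 26.0%, 29.9% and 24.0% at ND-SGDH, COX5A and COX5B. In ND-SGDH the capitals join a TATAAA on each strand that overlap, and in SdhC the DRE, which is its own reverse complement, is counted once.

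Complex I takes in electrons from NADH and is the largest of the complexes, with 40 genes here. Of these, 21 had a candidate (52.5%) and 4 were bound (10%, exact binomial 95% interval 2.79 to 23.7). All 4 bound genes encode accessory subunits rather than the 7 nuclear core subunits that carry the redox centres and their scaffold. The core genes ND-75, ND-51, ND-24, ND-49, ND-30, ND-20 and ND-23 had 4 candidates and 0 bound (exact binomial 95% interval 0 to 41.0%). Of 27 other subunits without paralogues 4 were bound (14.8%, interval 4.19 to 33.7). Both intervals hold the 14.8% of all nuclear protein-coding genes. This split was made after the values were seen and was not tested.

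ND-ASHI (FBgn0029888) had the highest signal of all 88 genes. Its IDR peak (X, 6679278 to 6679461) had a signal of 372.9 and rank 956, with a summit 268 bp upstream of the nearest ND-ASHI start. Its replicate signals were 123.5, 167.1 and 77.5, at ranks 906, 839 and 2241 in replicates 1, 2 and 3. All 3 ranks are within 3314, the number of IDR peaks. The summit lies in an intron of Fum1, which encodes fumarase of the tricarboxylic acid cycle and is on the other strand. It is 254 bp from the nearest Fum1 start, which points away from ND-ASHI. As the summit is inside Fum1, another Fum1 start lies farther off on the ND-ASHI side of the summit.

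ND-SGDH (FBgn0011455) encodes a subunit of the membrane arm. Its peak, on 3L from 12138426 to 12138849, ranked 2137 with a signal of 241.5, and the summit, between genes, lay 54 bp ahead of the start. Replicates 1, 2 and 3 gave signals of 80.9, 105.1 and 56.6 and ranks of 1894, 2074 and 4228. Replicate 3 alone placed it outside the 3314 strongest entries. The start of RhoGAP68F, which encodes a GTPase-activating protein, is 230 bp from the same summit.

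ND-MWFE (FBgn0085468; 2R, 13158222 to 13158645) had a signal of 224.5 and rank 2430, and replicate signals of 84.8, 72.9 and 80.1 at ranks 1758, 4055 and 2089. Its summit was 232 bp upstream of the ND-MWFE start but 11 bp from that of TppII, which encodes tripeptidyl peptidase II, and lay in the TppII 5′ UTR. ND-B22 (FBgn0032511; 2L, 13370832 to 13371255) had the lowest signal of the bound genes, 195.8 at rank 3069. Its replicate signals were 31.5, 92.6 and 58.7 at ranks 9229, 2653 and 3968, so that only replicate 2 placed it among its 3314 strongest. The summit lay 18 bp upstream of the nearest ND-B22 start, within the annotated 5′ UTR of the gene.

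Among the complex I genes with a candidate but no IDR peak, ND-24 (signal 170.6, rank 3884) and ND-15 (143.6, rank 5233) came highest. ND-24 encodes a core subunit of the NADH-binding part. Its ranks were 4941, 3838 and 5844 in replicates 1, 2 and 3, all of them outside the 3314 strongest. ND-15 ranked 18668, 4557 and 8301, a wider spread.

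Complex II, succinate dehydrogenase, also works in the tricarboxylic acid cycle. SdhC (FBgn0037873), which encodes a membrane anchor, was the 1 bound gene of 8 (12.5%, exact binomial 95% interval 0.316 to 52.7), and 4 had a candidate. Its peak (3R, 11209985 to 11210408) had a signal of 197.1 and rank 3027, and the replicate signals were 58.7, 97.1 and 37.1 at ranks 3297, 2421 and 9239. In replicate 1 that entry was another summit, at -185 bp from the start, and the replicate 1 entry nearest to the pooled summit, 39 bp from it, ranked 14186. The summit lay 348 bp upstream of SdhC in intergenic sequence and 50 bp from the start of Tctp, which encodes the translationally controlled tumour protein. The DRE printed in capitals lies within 100 bp of this summit.

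The other genes of complex II ranked lower. SdhB, for the iron-sulfur subunit, had a signal of 166.3 at rank 4068, and ranks of 7945, 3934 and 5934 in the replicates. SdhD, the other membrane anchor, had 111.5 at rank 7867. SdhA, for the flavoprotein subunit, had no pooled candidate within 500 bp. The nearest pooled summit was 529 bp away at rank 16881, just outside the window.

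Complex III, which oxidizes ubiquinol, had 0 bound genes of 9 (0 of 9 allows up to 33.6% by the exact binomial 95% interval), and 5 had a candidate. A window of 1000 bp would count 2, UQCR-6.4L and UQCR-Q, whose nearest IDR summits were 961 bp and 996 bp away. The core protein genes UQCR-C2 (signal 169.1, rank 3946) and UQCR-C1 (136.4, rank 5651) came highest. UQCR-C2 ranked 6269, 8877 and 2654 in replicates 1, 2 and 3, and so was among the 3314 strongest entries of replicate 3 only. UQCR-C1 ranked 3502, 8704 and 23630. Replicate 3 thus gave the highest rank of the 3 for UQCR-C2 and the lowest for UQCR-C1.

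Complex IV, cytochrome c oxidase, had 3 bound genes of 16 (18.8%, exact binomial 95% interval 4.05 to 45.6), and 10 had a candidate. COX5A (FBgn0019624) encodes a subunit on the matrix side. Its peak (3R, 11819236 to 11819659) had a signal of 259.4 and rank 1888, and replicate signals of 75.4, 112.0 and 86.3 at ranks 2142, 1837 and 1765. These 3 ranks lay closer together than those of any other bound gene. The summit was 89 bp downstream of the COX5A start, in an intron, and 28 bp from a start of glo, which encodes an RNA-binding protein on the other strand and whose 5′ end overlaps that of COX5A.

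COX7AL2 (FBgn0085201), a paralogue of COX7A, had a peak (2L, 2197275 to 2197698) of signal 239.2 and rank 2178, with replicate signals of 64.3, 74.2 and 58.2 at ranks 2835, 3904 and 4019. Its summit was 425 bp downstream of the start in the 5′ UTR, the farthest of the bound genes, and no other gene started within 500 bp of it. In replicate 2 the value given is that of the entry within 500 bp of the start, 297 bp downstream, and the replicate 2 summit nearest to the pooled one, 85 bp from it, lay outside that window and ranked 2066. COX7A (FBgn0040529; 3R, 8340826 to 8341249) had a signal of 208.1 and rank 2760, with the summit 5 bp downstream of its start and 62 bp from the start of Arl2, a small GTPase gene. Its replicate signals were 64.4, 54.1 and 84.4 at ranks 2828, 7043 and 1855.

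COX5B and COX8 lay just below the IDR peaks. COX5B had a pooled signal of 185.1 at rank 3349, against a lowest IDR signal of 186.7. Its replicate signals were 40.1, 73.0 and 60.6, at ranks 6178, 4034 and 3735, so that no replicate placed it among its 3314 strongest entries. COX8 had a pooled signal of 173.6 at rank 3753, and ranked 7270, 1814 and 3981, so that replicate 2 alone did, with an entry at -377 bp from the start, where the pooled summit was at -174 bp. By pooled signal COX5B cannot be set apart from the weakest bound genes, ND-B22 (195.8) and SdhC (197.1), whose replicate ranks spread more widely. Each of these had at least 1 replicate rank within 3314, and COX5B had none.

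Complex V, the ATP synthase, had 2 bound genes of 15 (13.3%, exact binomial 95% interval 1.66 to 40.5), and 9 had a candidate. ATPsynC (FBgn0039830) encodes the subunit that forms the rotating ring in the membrane. The gene had 2 IDR summits within 500 bp of a start, of which the stronger is described. That peak (3R, 31219267 to 31219690) had a signal of 288.0 and rank 1555. Its summit was 80 bp downstream of a start and in the 5′ UTR of the gene. The strongest entries at the gene had signals of 67.9, 130.2 and 146.9 in replicates 1, 2 and 3, at ranks 2588, 1359 and 581. In replicate 3 that entry was another summit, 311 bp downstream, and the entry at the pooled summit ranked 3052, so that the gene was called in all 3 replicates by either.

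ATPsynE (FBgn0038224) encodes subunit e, which takes part in the pairing of the synthase into dimers. Its peak (3R, 14326776 to 14327199) had a signal of 204.0 and rank 2857, 41 bp downstream of the start in the 5′ UTR, and the start of Afti on the other strand was 299 bp away. Replicate signals were 68.5, 77.0 and 58.7, at ranks 2544, 3673 and 3958, and only replicate 1 placed it among its 3314 strongest. The highest of the genes not bound were ATPsyngamma (signal 161.8, rank 4265) and ATPsynD (153.7, rank 4646), both of the stalks. ATPsynbeta, the catalytic subunit, was named after its values were seen: it had 129.9 at rank 6117 in the pooled list, and ranked 20109, 2336 and 12595 in replicates 1, 2 and 3.

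**Figure D1:**
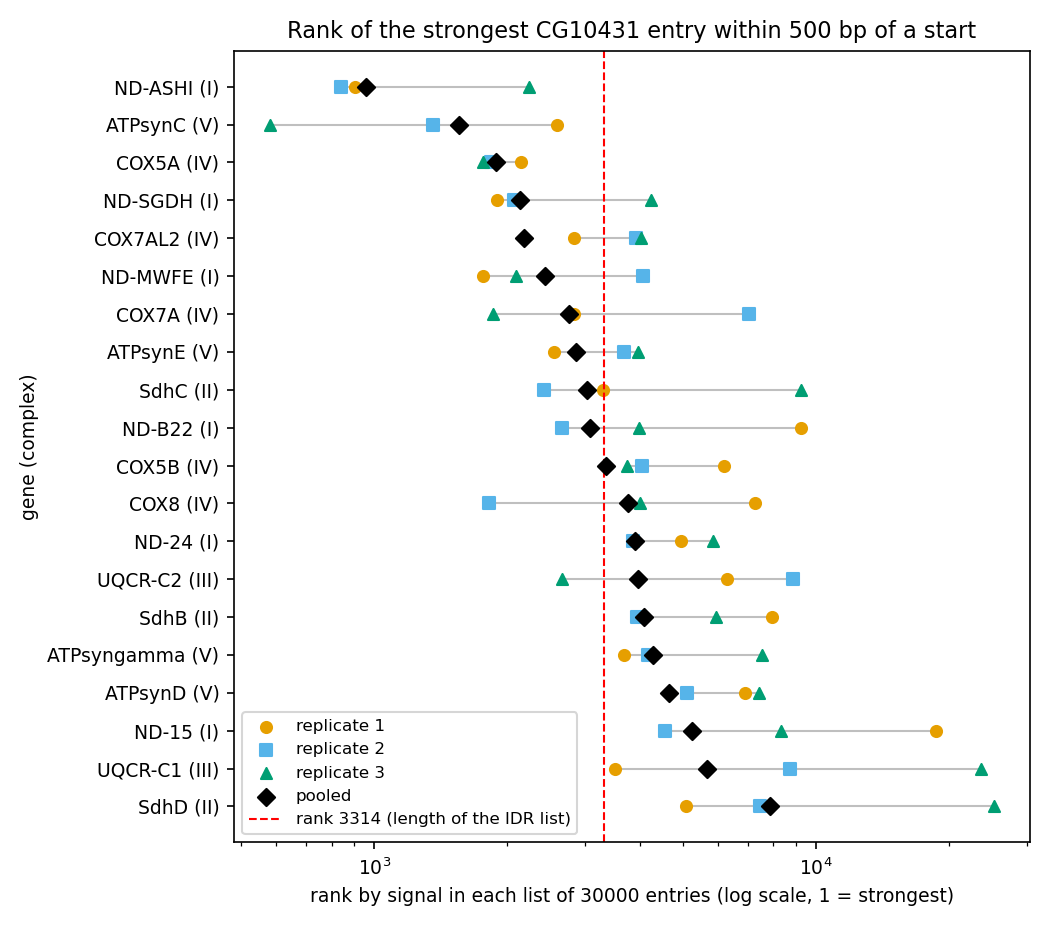
Rank of the strongest entry within 500 bp of a start (x axis, log scale, 1 is strongest) for the 10 bound genes and the 2 strongest genes without an IDR peak in each complex, in the pooled list (diamonds) and in replicates 1 to 3. ND-ASHI, ATPsynC and COX5A lie left of rank 3314 in all 3 replicates, and the other bound genes have at least 1 replicate to its right.

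The replicates called partly different genes. When the 3314 strongest entries of each replicate stood for its peaks, 10, 8 and 6 of the 88 genes were called in replicates 1, 2 and 3, a mean of 8.0 ± 2.0 (SD, n = 3), or 11.4%, 9.09% and 6.82%. All nuclear protein-coding genes gave 14.6%, 15.0% and 15.4%. The genes called in all 3 were ND-ASHI, COX5A and ATPsynC. The matching share of all nuclear protein-coding genes called in all 3 was not computed, so this overlap has no background. Called without an IDR peak were ND-51 in replicate 1, ATPsynbeta and COX8 in replicate 2 and UQCR-C2 in replicate 3.

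By summit, with 250 bp allowed between the IDR summit and a strong replicate entry, 3 of the 10 bound genes were found in all 3 replicates, 5 in 2 and 2 in 1. Of the 5, SdhC was counted in replicate 1 through its entry at -185 bp, while the nearest replicate 1 entry ranked 14186. Among all bound protein-coding genes 61.5% were found in all 3. The bound genes of oxidative phosphorylation also ranked low in the IDR list, with a median rank of 2304 and a median signal of 231.9, against 1572.5 and 286.9 for all bound genes. Only 2 of the 10, ND-ASHI and ATPsynC, were among the 1657 IDR peaks of highest signal, where 52.7% of all bound genes were. That is 2.27% of the 88 genes, against 7.81% of all nuclear protein-coding genes. Of the other 8, 1 was found in all 3 replicates, and of all bound genes in that weaker part of the list 22.9% were.

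Limited to IDR peaks found in both of 2 replicates, 3 genes were bound without replicate 1 (3.41%), 5 without replicate 2 (5.68%) and 6 without replicate 3 (6.82%). The same filter left 10.7%, 10% and 10.7% of all nuclear protein-coding genes. ATPsynC, COX5A and ND-ASHI were among the bound genes each time. SdhC was among the 6 through its replicate 1 entry at -185 bp.

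Over the 49 genes with a candidate, the strongest entry had a median pooled signal of 117.9 and a median rank of 7183. Over all 6532 nuclear protein-coding genes with a candidate these were 135.2 and 5727. Of the 49, 10 were bound (20.4%, exact binomial 95% interval 10.2 to 34.3), where the background was 31.7%. A candidate as such was present at 55.7% of the genes, against 46.8%. These are counts and medians, and no test of the group was made.

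**Figure D2:**
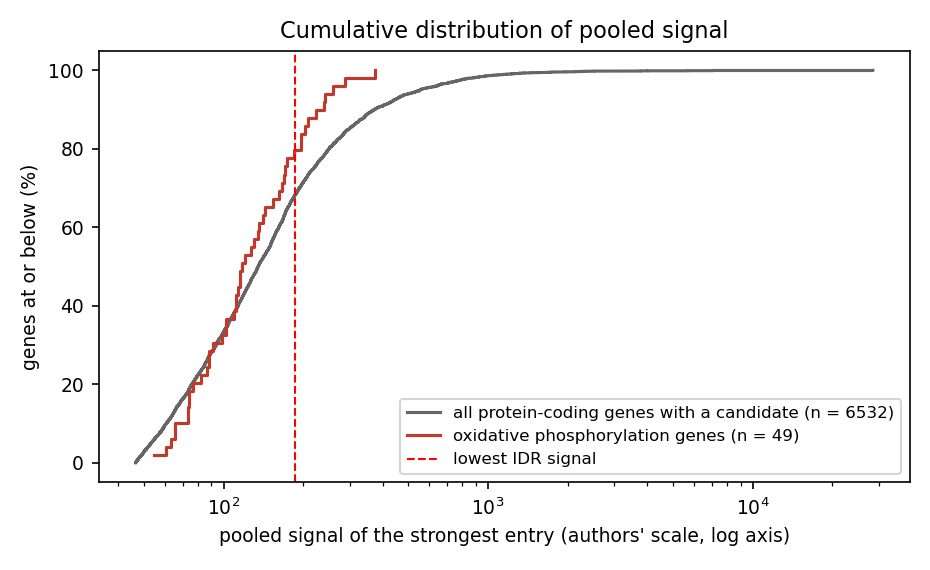
Cumulative share (y axis, %) of genes whose strongest pooled entry is at or below a given signal (x axis, log scale), for the 49 oxidative phosphorylation genes and all 6532 protein-coding genes with a candidate; the dashed line marks the lowest IDR signal, 186.7. The 49 genes end at 372.9, and the curve of all genes goes on far to the right.

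Between the complexes the bound shares ran from 0 of 9 in complex III to 3 of 16 in complex IV, and their exact intervals all overlapped. Median pooled ranks of the genes with a candidate were 7183, 5967.5, 7498, 5602 and 6117 in complexes I to V. In signal, the median and quartiles were 117.9 (98.7 to 143.6) in complex I and 144.5 (73.8 to 202.3) in complex IV, so that the spread within each was wider than the gap between their medians. Differences between complexes were not tested.

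Paralogues made up most of the genes without any entry. Of the 24, 4 had a candidate (16.7%), namely SdhBL, COX4L, COX5BL and COX7AL2, and 1 was bound. Of the other 64 genes 45 had a candidate (70.3%) and 9 were bound (14.1%, exact binomial 95% interval 6.64 to 25%). No entry near a start in any of the 4 candidate lists was found for 17 genes, of which 12 were paralogues. The other 5 were ND-20, ND-42, ND-B14.5B, UQCR-6.4 and Sdhaf3. A further 22 genes had an entry in at least 1 replicate list but none in the pooled list. Of all 13968 nuclear protein-coding genes, 5409 had no entry in any of the 4 lists. Another 2027 of them had one in a replicate list only. The 17 genes without any entry were thus a smaller share than among all genes, and the 22 a larger one.

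**Figure D3:**
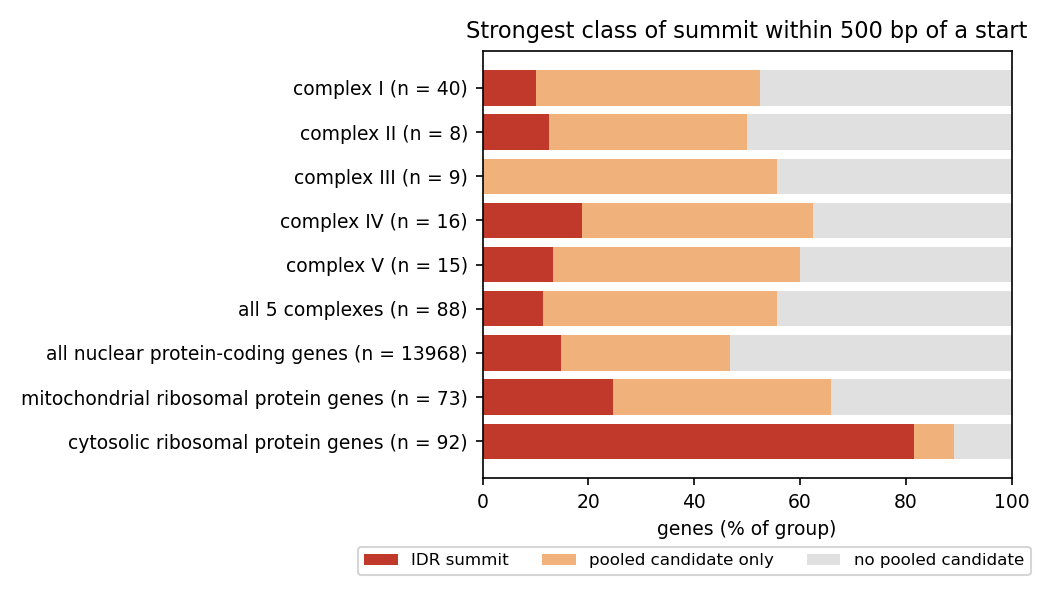
Share of genes (x axis, %) with an IDR summit, with a pooled candidate only and with neither within 500 bp of a start, for each complex, the 88 genes together, all nuclear protein-coding genes and 2 ribosomal protein families. The 88 genes have 11.4% bound, the mitochondrial ribosomal protein genes 24.7% and the cytosolic ones 81.5%.

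Most of the bound summits also lay near a start of another gene. For 7 of the 10, another protein-coding gene on the opposite strand started within 500 bp of the summit, namely Fum1, glo, RhoGAP68F, TppII, Arl2, Afti and Tctp. By the starts nearest to the summit, 6 pairs were divergent and in 1, COX5A and glo, the genes overlapped at their 5′ ends. In 4 pairs, those with Fum1, glo, TppII and Tctp, the other start was nearer to the summit. Another protein-coding start on either strand lay that near for 53.3% of all bound protein-coding genes. Counting genes of every type, ATPsynC joined them through mir-4949, which made 8 of 10, against 56.9%. Which gene of a pair a peak belongs to was not tested.

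Shared promoters were common among these genes whether or not they were bound. An opposite-strand protein-coding start lay within 500 bp of a start of 40 of the 88 (45.5%), against 27.8% of all nuclear protein-coding genes. Of the 40, 7 were bound (17.5%, exact binomial 95% interval 7.34 to 32.8), and of the other 48, 3 were (6.25%, 1.31 to 17.2). The matching shares among all genes were 27.8% and 9.86%.

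The summits lay on both sides of the start. Of the 10 bound genes 5 had the summit upstream and 5 downstream (exact binomial 95% interval of the upstream share 18.7% to 81.3%), and 6 summits were in a 5′ UTR, 2 in introns and 2 in intergenic sequence. Over the 49 genes with a candidate 26 were upstream (53.1%, interval 38.3 to 67.5), where the share was 71.8% over all genes with a candidate and 79.6% over all bound genes. The median distance to the start was 80.0 bp, against 141.0 bp over all genes with a candidate, and 55.1% of the summits were within 100 bp, against 39.6%.

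The side varied between complexes. In complex I, 16 of 21 strongest summits were upstream, with a median of -54.0 bp. This was near the 71.8% upstream over all protein-coding genes with a candidate. In complexes II, III and IV, 1 of 4, 3 of 5 and 4 of 10 were upstream. In complex V, 7 of 9 were downstream, with a median of 41.0 bp, and those 7 included ATPsynC, ATPsynE, ATPsyngamma, ATPsynD, ATPsynbeta, ATPsynO and ATPsynB. Some of these summits lay nearly on the start, ATPsynB at 1 bp and ATPsynO at 8 bp, in entries 424 bp wide. The side could also differ between lists. The strongest ATPsyngamma entry was at 141 bp in the pooled list but at -105 bp and -46 bp in replicates 1 and 3, while ATPsynD was downstream in every list. This pattern was noticed in the values and was not tested.

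**Figure D4:**
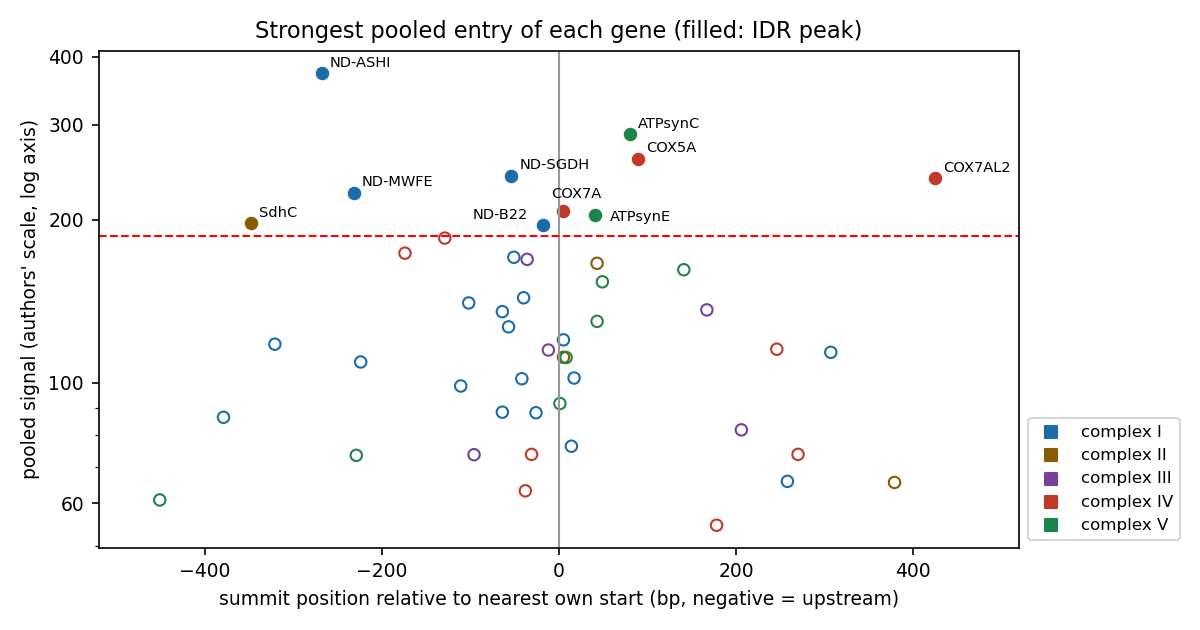
Position of the strongest pooled summit relative to the nearest start of the gene (x axis, bp, negative is upstream) and its pooled signal (y axis, log scale) for the 49 genes with a candidate, coloured by complex, with IDR peaks filled; the dashed line marks the lowest IDR signal, 186.7. Bound summits range from 348 bp upstream (SdhC) to 425 bp downstream (COX7AL2).

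In sequence, the windows from 100 bp before to 100 bp after the bound summits had a median GC content of 34.1% (26.4% to 47.8%), against 36.3% at all bound protein-coding genes. The 7-mer TACATGG, which an earlier analysis of these files found to be the most enriched at the peaks, was at 0 of 49 summits with a candidate and in 0 of 88 promoters (250 bp before to 50 bp from the gene start), against 2.57% of all protein-coding genes with a candidate and 1.93% of all protein-coding promoters. The DRE, the site of the factor DREF at promoters of growth genes, was at 3 of 10 bound summits, namely ATPsynE, COX7A and SdhC, against 7.29% of all bound genes. These 3 summits were also within 500 bp of a start of Afti, Arl2 and Tctp. Of the 3 genes, COX7A had a DRE in its own promoter window, and ATPsynE and SdhC did not. Over the 49 summits with a candidate the DRE was at 5 (10.2%, against 7.0%), and over the 88 promoters at 9 (10.2%, against 9.36%).

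Other promoter elements were counted in the same windows. The core of Motif 1 (GGTCACACT) was in 15 of 88 promoters (17.0%), against 6.04% of all, at 4 of 49 summits with a candidate (8.16%, against 4.62%), and at 0 of the 10 bound summits, against 4.2%. TATAAA was at 5 of 10 bound summits, against 36.8%, at 16 of 49 with a candidate (32.7%, against 32.0%), and in 55.7% of the 88 promoters, against 45.8%. The E-box CACGTG was at 0 of 49 summits, against 2.86%, and in 4 of 88 promoters (4.55%, against 4.2%). These are matches of letters, with no test.

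Other genes of mitochondrial energy supply were read from 5 lists. Of 10 subunits and electron carriers outside the prefixes, 9 had a candidate and 4 were bound (exact binomial 95% interval 12.2% to 73.8%). The share over all nuclear protein-coding genes, 14.8%, lay within that interval and within those of the other 4 lists. Cyt-c-d, a cytochrome c gene, had a signal of 549.7 at rank 471, and ranked 401, 696 and 437 in replicates 1, 2 and 3. The gene levy, for a subunit of complex IV, had 290.3 at rank 1529, and ranks of 3093, 1261 and 1340. Both were within 3314 in every replicate. The gene cype, also of complex IV, had 201.3 at rank 2916 and Cyt-c-p, the other cytochrome c gene, 191.3 at rank 3187.

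Of 16 tricarboxylic acid cycle genes 4 were bound (25%, exact binomial 95% interval 7.27 to 52.4), against 14.8% of all nuclear protein-coding genes. Idh3g, for a subunit of NAD-dependent isocitrate dehydrogenase, had a signal of 646.4 at rank 348, and ranked 448, 340 and 233. Fum1 shared the peak of ND-ASHI. The gene mAcon1, for mitochondrial aconitase, had 258.8 at rank 1896, and kdn, for citrate synthase, 233.4 at rank 2265.

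In the remaining lists, Cox17 (268.6, rank 1791), for a copper chaperone of complex IV, was the 1 bound of 8 assembly factors (12.5%, exact binomial 95% interval 0.316 to 52.7), against 14.8% of all nuclear protein-coding genes. CIA30, an assembly factor of complex I, was named after its values were seen: it ranked 478 and 789 in replicates 1 and 2, above Cox17 at 1796 and 2069, and had no entry in the window in replicate 3 or the pooled list. Of 9 membrane carriers 2 were bound (22.2%, interval 2.81 to 60), Ucp4A (255.5, rank 1937) and the outer membrane channel gene porin (228.8, rank 2347). Of 14 genes of mitochondrial DNA, its expression and its regulators 1 was bound (7.14%, interval 0.181 to 33.9). That was ewg, related to the vertebrate nuclear respiratory factor NRF-1, with a signal of 895.6 at rank 157 and ranks of 212, 173 and 125, the highest of all the genes in these lists.

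The 2 gene families set beside them had larger bound shares. Of 73 mitochondrial ribosomal protein genes 18 were bound (24.7%, exact binomial 95% interval 15.3 to 36.1), and of 92 cytosolic ones 75 were (81.5%, interval 72.1 to 88.9), with median pooled signals of 138.7 and 456.4 over those with a candidate. In replicates 1, 2 and 3 the cytosolic family had 73, 76 and 76 genes called, against the 10, 8 and 6 of oxidative phosphorylation. The interval of the latter, 5.59 to 19.9%, lay below that of the cytosolic family and overlapped that of the mitochondrial one. Genes that share a promoter share a summit, and the differences between families were not tested.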

How the data were processed

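ChIP-seq peak lists on dm6 of 3 replicates and of their pool were used. Per the labels, chromatin was sonicated to 200 to 800 bp. The authors deposited for each entry a signal of unstated scale, a q-value as −log10 and a summit offset given as another whole number in bp. Per the notes deposited with the files, each list was called against the same control alignment. The aligner and the peak caller were not stated in the labels or file headers used.

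Starts came from Ensembl release 115, and all 88 members had the same coordinates in RefSeq. For each gene the entry of highest signal with a summit within 500 bp of a start was taken. For replicates, the 3314 strongest entries were counted, and summits within 250 bp were called shared. Intervals are exact binomial at 95% and cover counting error over genes only. No hypothesis test was made, since there is 1 group and genes sharing a promoter are not independent. Members, lists (58 of 63 symbols matched, 1 gene under both of its names) and motifs were chosen with earlier results of these data known. All bound members are named, with the 2 strongest others per complex and the bound genes of each list, up to 6. Alternatives were a window of 250 or of 1000 bp, the 5′ end of the gene in place of all its starts, the 1657 strongest IDR peaks, other numbers of replicate entries and distances, and leaving out a replicate, the paralogues or Sdhaf3. A search for the NRG element is not reported, since its consensus could not be checked here. Python 3.11.15, pandas 2.3.3 and scipy 1.17.1 were used.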

Additional observations from a re-analysis of the deposited data

How the results depend on the processing

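Of 109 recomputed values, 79 stayed within 1.5 times the count or within the interval of the value given, and 30 moved. Leaving out paralogues by the first rule kept COX7AL2 and gave 10 bound genes; a wider rule, chosen after seeing the data, gave 9. Windows of 250 and 1000 bp gave 7 and 13 bound genes; the wider added ATPsynD, UQCR-6.4L and UQCR-Q, hence 2 in complex III, and the narrower left 0 in complex II. With the 1657 strongest IDR peaks 2 genes were bound (4.08% of those with a candidate), with 1, 0, 0 and 1 in complexes I, II, IV and V, and all of them shared a summit with another gene (100%, against 80% of the 10, any gene type). Leaving out a replicate gave 3 to 6 bound genes (6.12% to 12.2% of those with a candidate), 1 to 2 in complex I, 0 to 1 in II, 0 in III, 1 to 2 in IV and 1 in V, an upstream share of 33.3% to 50% and a shared summit for 83.3% to 100%, and a mean of 7.0 to 9.0 genes per replicate. That mean was 1.33 with 1657 replicate entries, 16.7 with 5000 and 11.7 with a 1000 bp window; the genes found in all 3 replicates were then 0, 7 and 6, against 3. Longer lists and wider windows count more genes by construction. The matching shares of all nuclear protein-coding genes were not computed for the other windows and entry numbers. Those counts therefore cannot be set against the background. No paired analysis was possible because there is 1 group. Read depth, which would set what could be detected, is unknown.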

Other observations

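ND-51, which encodes the NADH-binding core subunit of complex I, had entries 142 bp and 119 bp upstream of its start in replicates 1 and 3, at ranks 3262 and 3402 (signals 59.1 and 63.2). Replicate 2 had no entry within 500 bp of a start of this gene, and the nearest pooled summit was 3359 bp away. Of the 3314 strongest entries of replicates 1, 2 and 3, there were 63, 32 and 51 with no pooled summit within 1000 bp.

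Across the 37 oxidative phosphorylation genes with an entry in all 4 candidate lists, the replicate signals gave Spearman correlations of 0.47, 0.51 and 0.45 (replicates 1 and 2, 1 and 3, 2 and 3). Over 4922 protein-coding genes with such entries they were 0.76, 0.71 and 0.74. The oxidative phosphorylation genes span a narrower range, since their pooled signals end at 372.9 and those of all genes go on far higher. No set of genes matched for signal was compared. These describe the lists across genes, which are not independent replicates, and the replicates share a control.

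By arm, 5 of the 10 bound genes were on 3R, which holds 20 of the 88, with 2 of 16 on 2L and 1 each of 17 on 2R, 20 on 3L and 13 on X. The bound share of all protein-coding genes on each arm was not computed, so these counts do not set 3R apart. ND-49 and ATPsynbeta on chromosome 4 each had a candidate and no IDR peak.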
